A study of Homo sapiens with 8 samples.

Results

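The 10 genes described here encode surface molecules and a secreted lectin through which tumor cells restrain or engage T cells, NK cells and macrophages: CD274, PDCD1LG2, CD276, NT5E, CD47, PVR, NECTIN2, LGALS9, MICA and MICB. They were taken by gene name from a table of 60282 genes, and all 10 were found once. The table holds RNA-seq counts from SK-UT-1, an established human cell line of uterine leiomyosarcoma (uLMS), a malignant tumor of the smooth muscle of the uterus. Cells were treated for 48 h with 5 µM TP-472, a small-molecule inhibitor of the bromodomain proteins BRD9 and BRD7, or with vehicle (DMSO), with 4 libraries per group. To identify transcripts that differ between these 2 groups, RNA of whole cell pellets was sequenced. SK-UT-1 is 1 cell line, and the sample descriptions name no added immune cell. The study's methods state in general terms that its experiments had biological replicates, whereas the sample descriptions do not say how the 4 libraries of a group were obtained, so p-values measure the spread between these libraries.

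Checkpoint ligands act by binding inhibitory receptors. PD-L1 (CD274) and PD-L2 (PDCD1LG2) bind PD-1 on activated T cells and dampen signaling from the antigen receptor, and interferon-gamma, acting through JAK kinases and IRF1, is the classical inducer of PD-L1 on tumor cells. CD47 binds SIRP-alpha on macrophages and inhibits phagocytosis, and CD73 (NT5E) converts extracellular AMP to adenosine, which suppresses T and NK cells through adenosine receptors. PVR and NECTIN2 bind both the activating receptor DNAM-1 (CD226) and the inhibitory receptor TIGIT, whereas MICA and MICB are stress-induced ligands of NKG2D, an activating receptor of NK cells and CD8 T cells.

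The libraries held between 32574716 and 38545695 counts. Levels are given as CPM, that is, counts scaled to a library of 1000000, after correction for library composition by the TMM method (trimmed mean of ratios between libraries). Vehicle replicate 3 stood apart from the rest of its group. Its rank correlation with vehicle replicates 1, 2 and 4 across the genes tested was between 0.909 and 0.939, against 0.988 to 0.998 for the other pairs of libraries within a group, and 3114 of the 14073 genes tested (22.1%) differed by over 2-fold from the mean of those 3 libraries. Across 13970 genes, the shift of this library followed the GC content of the transcript (Spearman rho = 0.765, across genes, which are not independent replicates). Among the members the same order was seen: CD47, with the lowest GC content (38.4%), lay 1.08 below the other vehicle libraries on the log2 scale, whereas NECTIN2 (59.4% GC) lay 1.23 above and CD276 (61% GC) lay 0.98 above them. CD274 (40.9% GC) was shifted by 0.02 only. Over the 8 members tested, Pearson's r between shift and GC content was 0.914 and Spearman's rho was 0.952, as a description of points that share 1 library. The members tested are therefore given with all 8 libraries and without vehicle replicate 3. For the related genes named, the values are from all 8 libraries, and the other fit is given where it changes the outcome of the test.

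**Figure D1:**
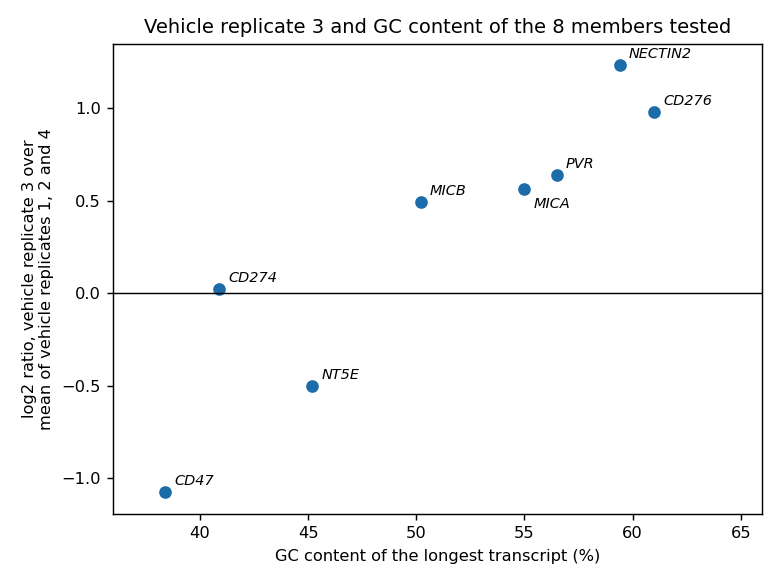
Shift of vehicle replicate 3 plotted against GC content for the 8 members tested; the x axis is the GC content of the longest transcript in percent and the y axis is the log2 ratio of the level in vehicle replicate 3 to the mean of vehicle replicates 1, 2 and 4. Each point is a gene, and the points run from CD47 at the lower left (38.4% GC, log2 ratio -1.08) to NECTIN2 and CD276 at the upper right (1.23 and 0.98).

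In TP-472-treated cells, the transcripts of CD274 and NT5E were higher than in vehicle-treated cells, by 2.45-fold and 1.92-fold, and none of the 8 members tested with all 8 libraries was called lower. Genes were tested if they had over 1 CPM in at least 4 of the 8 libraries, which left 14073 genes and 8 of the 10 members; PDCD1LG2 and LGALS9 were below that level. A gene was called where the p-value of edgeR's quasi-likelihood test, adjusted by the Benjamini-Hochberg method over all genes tested, was under 0.05 and the fold change was over 1.5. By this rule 2 members were called higher and 0 lower, against a background of 12.0% of all genes tested called higher and 14.9% called lower. Without vehicle replicate 3, MICA joined CD274 and NT5E, so that 3 members were called higher and 0 lower, against backgrounds of 12.0% and 13.4%. The median log2 fold change of the 8 members was 0.27, against -0.03 over all genes tested, and without vehicle replicate 3 it was 0.43. With no limit on the fold change, 2 members had an adjusted p under 0.05 with all 8 libraries (background 36.3%) and 6 without vehicle replicate 3 (background 57.0%), of which 5 were higher (CD274, NT5E, MICA, MICB and PVR, background 28.6%) and 1 was lower (NECTIN2, background 28.4%). The 2 groups did not overlap in 4 of the 8 members tested (background 45.4%), and in 7 of 8 without vehicle replicate 3 (background 58.5%).

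**Figure D2:**
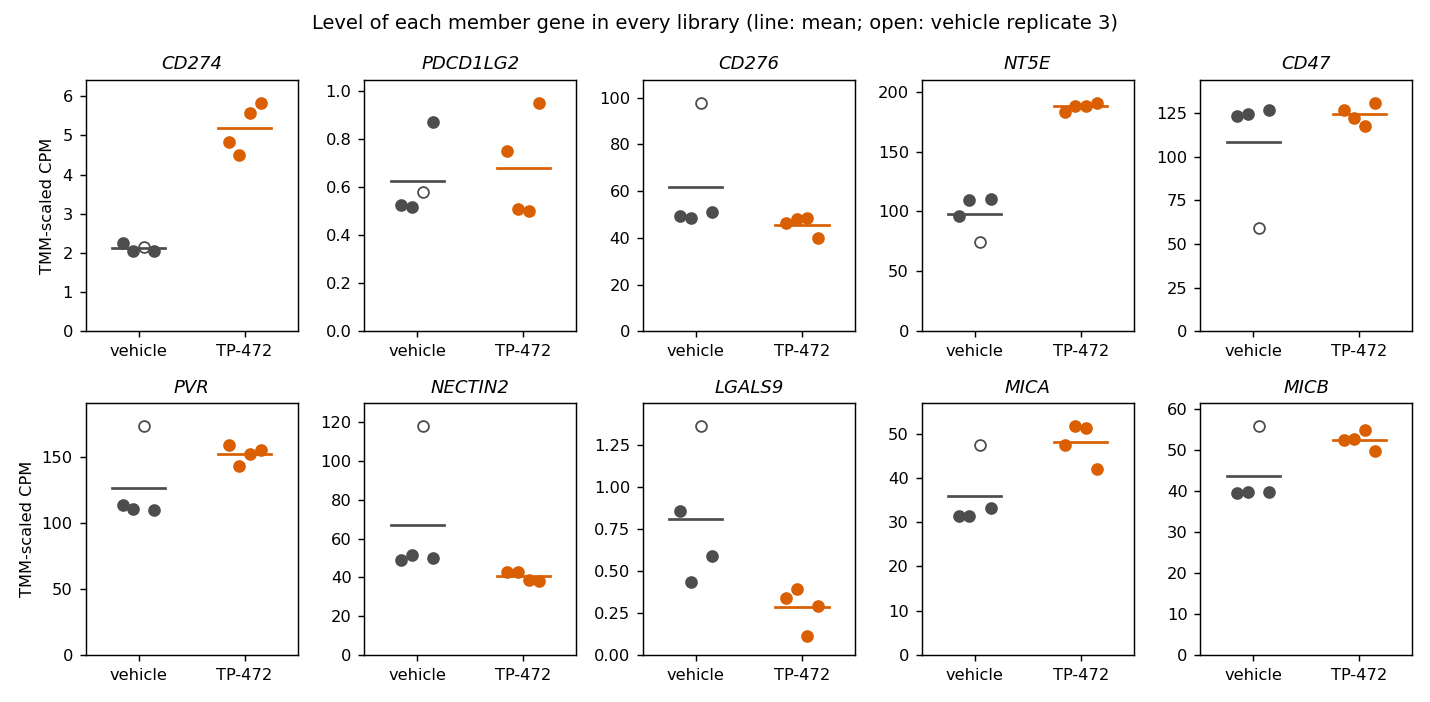
Level of each of the 10 members in every library, in TMM-scaled CPM (y axis, from 0), for 4 vehicle and 4 TP-472 libraries; lines are group means and the open circle is vehicle replicate 3. The 4 TP-472 libraries of CD274 (4.51 to 5.84 CPM) and NT5E (183 to 191 CPM) lie above all vehicle libraries, and the open circle lies apart from the other vehicle libraries for CD276, CD47, PVR, NECTIN2, MICA and MICB.

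The ligands of PD-1 came from adjacent genes on chromosome 9. CD274 (ENSG00000120217.14, plus strand, chr9:5450503-5470566 on GRCh38) measured 2.24, 2.04, 2.14 and 2.05 CPM in vehicle replicates 1 to 4 and 4.84, 4.51, 5.58 and 5.84 CPM in TP-472 replicates 1 to 4. All TP-472 libraries lay above all vehicle libraries, and vehicle replicate 3 was not set apart for this gene. The means were 2.12 ± 0.0948 CPM in vehicle and 5.19 ± 0.621 CPM in TP-472 (SD, n = 4 each). In edgeR, CD274 rose by 1.29 on the log2 scale (SE 0.15, adjusted p = 4.52e-04). The fit of the other 7 libraries gave 1.30 (adjusted p = 6.75e-05). The exact permutation test of the CPM values gave p = 0.0286, the smallest that 4 libraries against 4 allow. Any gene without overlap between the groups gets this value, and 45.4% of all genes tested had no overlap. CD276 and NECTIN2, which were not called, had the same value. Without vehicle replicate 3 the permutation test gave p = 0.0571 for CD274, again the smallest possible. CD274 remained low in absolute terms, with 71 to 81 counts per vehicle library and 160 to 221 counts per TP-472 library.

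The region in front of CD274 is shown because interferon-responsive elements in it are the textbook route of PD-L1 induction. The promoter sequences were taken from RefSeq (GRCh38.p14), which gave one for 9 of the 10 members. Each stretch below runs 5′ to 3′ from 250 bases before the start site to 10 bases past it, and the capitals mark matches to the motifs searched on both strands. These were the interferon-stimulated response element (ISRE, 2 runs of GAAA with 2 bases of any kind between them), the gamma-activated site of interferon-gamma signaling (GAS, TTCNNNGAA), AP-1 (TGANTCA) and NF-kB (GGG, 2 bases of any kind, TTTCC), with N for any base. In CD274 (chr9:5450292-5450551, plus strand), 2 overlapping ISRE matches on the reverse strand began at -208 and -202 and a GAS match began at -125. In NT5E (chr6:85449833-85450092, plus strand), shown as the other member called in all 8 libraries, none of the 4 motifs matched. LGALS9 (chr17:27630938-27631197, plus strand), shown as the only other member with a match, had an ISRE match on the reverse strand that began at -9.
CD274: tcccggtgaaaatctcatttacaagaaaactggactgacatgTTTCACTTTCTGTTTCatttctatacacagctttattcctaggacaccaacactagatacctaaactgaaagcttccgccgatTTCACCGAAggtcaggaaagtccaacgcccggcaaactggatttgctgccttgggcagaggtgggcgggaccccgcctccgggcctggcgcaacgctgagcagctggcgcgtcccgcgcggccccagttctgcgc
NT5E: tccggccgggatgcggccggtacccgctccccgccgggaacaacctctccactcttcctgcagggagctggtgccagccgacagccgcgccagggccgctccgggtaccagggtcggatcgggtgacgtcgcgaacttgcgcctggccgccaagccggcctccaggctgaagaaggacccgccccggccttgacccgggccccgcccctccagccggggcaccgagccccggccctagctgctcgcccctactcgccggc
LGALS9: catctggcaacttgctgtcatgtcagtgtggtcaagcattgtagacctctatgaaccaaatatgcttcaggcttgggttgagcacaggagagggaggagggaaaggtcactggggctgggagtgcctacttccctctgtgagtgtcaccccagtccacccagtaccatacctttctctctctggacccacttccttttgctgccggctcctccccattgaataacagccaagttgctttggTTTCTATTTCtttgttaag
The search covered the whole promoter in the RefSeq table, from 250 bases before the start site to 50 past it, of which the end is not printed. Among 35116 promoters of that full length, 3.57% held the ISRE letters, 7.66% GAS, 7.71% AP-1 and 1.91% NF-kB. Matches describe letters only and say nothing of binding.

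PDCD1LG2 (ENSG00000197646.8, plus strand, chr9:5510570-5571254) lies 40004 bases downstream of CD274 and was under the filter. It had 19, 18, 20 and 31 counts in vehicle and 29, 18, 18 and 36 counts in TP-472. The groups overlapped throughout, at 0.623 ± 0.167 and 0.677 ± 0.217 CPM (SD, n = 4 each; exact permutation test, p = 0.771). In an edgeR fit with no filter on low counts, its log2 fold change was 0.11 (SE 0.35, adjusted p = 0.846). On the other sides of the pair, PLGRKT (log2 fold change -0.10, adjusted p = 0.675 by edgeR) and RIC1 (-0.01, adjusted p = 0.950) did not pass the test, so that CD274 was the only gene called of the 3 tested in this stretch. Among the protein-coding genes whose levels followed CD274 most closely over the 8 libraries were LAMB1 and MYPN, with Pearson's r of log2 CPM of 0.9941 and 0.9926, as a description over 2 groups in which all 3 genes differ. MYPN passed the filter only through the TP-472 libraries.

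CD276 (B7-H3, ENSG00000103855.18, plus strand, chr15:73683966-73714518) is a B7-family molecule found on many solid tumors. It measured 49.4, 48.5, 97.9 and 51.0 CPM in vehicle and 46.6, 47.9, 48.3 and 39.9 CPM in TP-472. Vehicle replicate 3 stood far above the other 7 libraries, which lay between 39.9 and 51.0 CPM. All TP-472 libraries lay below all vehicle libraries, the closest at 48.3 against 48.5 CPM. The log2 fold change was -0.43 (SE 0.23, adjusted p = 0.166 by edgeR) and -0.12 (SE 0.08, adjusted p = 0.199) without that library.

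LGALS9 (galectin-9, ENSG00000168961.17, plus strand, chr17:27629798-27649560) is a secreted lectin that binds TIM-3. It had 31, 15, 47 and 21 counts in vehicle and 13, 14, 4 and 11 counts in TP-472, where its mean CPM was the lowest of the 10 genes. In vehicle, PDCD1LG2 averaged less with replicate 3 included (0.623 against 0.810 CPM). Without that replicate LGALS9 averaged less (0.627 against 0.638 CPM). Per kb of exon, LGALS9 was the lowest of the 10 in both groups. The groups did not overlap, with TP-472 libraries at 0.111 to 0.395 CPM and vehicle libraries at 0.431 to 1.36 CPM (exact permutation test, p = 0.0286). It was below the filter. When edgeR was run with no filter, the log2 fold change was -1.50 (SE 0.45, adjusted p = 0.0316), against a background of 8.13% of genes called lower in that fit, and -1.17 (adjusted p = 0.0380, background 7.78%) without vehicle replicate 3, the library with the highest count. LGALS9 shares 8.78% of its 31-base words with its copy LGALS9B and 16.2% with LGALS9C, which together had 1 count in the 8 libraries.

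Of 23 other B7-family and T-cell ligands, 15 were tested, of which 1 was called higher and 6 lower (median log2 fold change -0.30), where 26.9% of all genes tested were called in either direction. The lower genes were BTN2A2, BTN3A1, BTN3A2 and BTN3A3, members of the butyrophilin family, together with TNFRSF14 (HVEM), the ligand of BTLA, and IDO1, an enzyme that breaks down tryptophan. TNFRSF14 passed the filter only through the vehicle libraries, so that its call had to be lower. BTN3A1, through which phosphoantigens are sensed by gamma-delta T cells, fell from 45.5 ± 3.99 CPM to 14.2 ± 0.847 CPM (log2 fold change -1.68, SE 0.11, adjusted p = 3.97e-05 by edgeR). BTN3A3 fell from 31.6 ± 5.42 CPM to 11.4 ± 0.857 CPM (log2 fold change -1.47, adjusted p = 2.64e-04). The gene called higher, TNFSF4 (OX40 ligand), had a log2 fold change of 0.65 (adjusted p = 0.0392), which was 0.54 and under the fold limit without vehicle replicate 3. CD80 and CD86, the ligands of CD28 and CTLA-4, had no count in any vehicle library, which allows up to 0.0868 CPM (3 counts, covering counting error only). In TP-472 replicates 1 to 4, CD80 had 0, 3, 0 and 3 counts and CD86 had 2, 5, 1 and 2 counts.

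Of 12 genes of the interferon-gamma route to PD-L1, 11 were tested, with 1 called higher and 4 lower (median log2 fold change -0.20, background 26.9% in either direction), and with 1 and 3 without vehicle replicate 3 (background 25.5%). IRF9, the DNA-binding subunit of the interferon-stimulated factor ISGF3, fell from 54.9 ± 9.54 CPM to 18.6 ± 2.09 CPM (log2 fold change -1.57, SE 0.15, adjusted p = 2.08e-04 by edgeR). PTPN2, a phosphatase that dephosphorylates JAK1, rose from 35.8 ± 7.35 CPM to 59.8 ± 0.844 CPM (log2 fold change 0.74, adjusted p = 0.00706). The receptor subunits IFNGR1 and IFNGR2 and the kinases JAK1 and JAK2 had log2 fold changes between -0.08 and 0.26, none past the test with all 8 libraries, and IRF1 had -0.36 (adjusted p = 0.0511). Without vehicle replicate 3, JAK2 had -0.27 (adjusted p = 0.00837) and IRF1 had -0.24 (adjusted p = 0.00626), both under the fold limit. Of 10 genes of PD-L1 turnover and glycosylation, 9 were tested, with 0 called higher and 1 lower in both fits, below the same backgrounds. That gene was CMTM4, which protects PD-L1 from degradation, and it fell from 97.1 ± 5.42 CPM to 61.9 ± 4.4 CPM (log2 fold change -0.65, adjusted p = 0.00148). Its relative CMTM6 had a log2 fold change of 0.61 (adjusted p = 0.105), and 0.38 (adjusted p = 0.00344) without vehicle replicate 3, under the fold limit.

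NT5E (CD73, ENSG00000135318.12, plus strand, chr6:85449584-85495791), whose promoter is printed with that of CD274, was higher in every TP-472 library. It measured 96.0, 110, 74.4 and 110 CPM in vehicle, and 183, 188, 188 and 191 CPM in TP-472. The TP-472 libraries lay close together above all vehicle libraries, and vehicle replicate 3 was the lowest of its group. The means were 97.6 ± 16.8 CPM and 187.7 ± 3.22 CPM (SD, n = 4 each). In edgeR, NT5E rose by 0.94 on the log2 scale (SE 0.13, adjusted p = 0.00123), and the exact permutation test gave p = 0.0286. Without vehicle replicate 3 the vehicle mean was 105 ± 8.07 CPM (n = 3) and the log2 fold change was 0.83 (SE 0.07, adjusted p = 9.74e-06), that is 1.78-fold. The nearest tested protein-coding gene, SNX14, 9705 bases downstream on the opposite strand, had a log2 fold change of 0.12 (adjusted p = 0.626). On the other side, the long non-coding RNA LINC02535, 59398 bases away, averaged 0.240 CPM in vehicle and 1.54 CPM in TP-472 (log2 fold change 2.66), and it passed the filter only through the TP-472 libraries.

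Of 13 other genes that make, bind, transport or break down adenosine, 9 were tested, with 2 called higher and 2 lower, also without vehicle replicate 3 (backgrounds 26.9% and 25.5% in either direction). ENPP1, an ectoenzyme that releases AMP from ATP, measured 1.05 ± 0.335 CPM in vehicle and 2.66 ± 0.155 CPM in TP-472 (log2 fold change 1.33), and it passed the filter through the TP-472 libraries, with over 1 CPM in 2 vehicle libraries. ADORA1, an adenosine receptor, rose from 8.19 ± 0.957 CPM to 12.6 ± 1.41 CPM (log2 fold change 0.62, adjusted p = 0.00964). ADA, which deaminates adenosine, fell from 18.8 ± 1.27 CPM to 12.3 ± 0.956 CPM (log2 fold change -0.61, adjusted p = 0.00408), and DPP4, a surface protein that anchors it, fell from 116 ± 24.9 CPM to 56.3 ± 1.32 CPM (log2 fold change -1.04, adjusted p = 0.00185). ENTPD1 (CD39), which acts before CD73 in the conversion of ATP, was under the filter at 0.174 to 0.316 CPM in vehicle and 0.310 to 0.388 CPM in TP-472, and ADORA2A and ADORA2B, the receptors best known on T cells, did not pass the test (log2 fold changes -0.14 and -0.09).

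CD47 (ENSG00000196776.16, minus strand, chr3:108043094-108091862) showed no difference past the test. It measured 123, 125, 59.2 and 127 CPM in vehicle and 127, 122, 118 and 131 CPM in TP-472. Vehicle replicate 3 was the lowest of all 8 libraries, and the ranges of the others overlapped. The log2 fold change was 0.20 (SE 0.22, adjusted p = 0.501 by edgeR) with all 8 libraries and -0.0064 (SE 0.06, adjusted p = 0.933) without that library, so that its sign turned. Of 8 other genes of the CD47 axis and of phagocytosis, all were tested, with 1 called higher and 2 lower (background 26.9% in either direction), and with 1 and 1 without vehicle replicate 3 (background 25.5%). CD24, a surface protein that binds Siglec-10 on macrophages, measured 0.934 ± 0.319 CPM in vehicle and 6.30 ± 0.717 CPM in TP-472 (log2 fold change 2.75), and it passed the filter through the TP-472 libraries, with over 1 CPM in 2 vehicle libraries. LRP1, a receptor for calreticulin, fell from 83.7 ± 57.2 CPM to 17 ± 1.31 CPM (log2 fold change -2.30, and -1.75 without vehicle replicate 3, where it stood at 164 CPM). QPCTL, the enzyme that modifies CD47 for binding to SIRP-alpha, had a log2 fold change of -0.64 (adjusted p = 0.0379), which was -0.41 and under the fold limit without vehicle replicate 3. B2M, CALR and SIRPA did not pass the test.

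PVR and NECTIN2, the ligands of DNAM-1 and TIGIT, both lie on the long arm of chromosome 19 and had fold changes of opposite sign. PVR (CD155, ENSG00000073008.15, plus strand, chr19:44643798-44663583) measured 114, 111, 174 and 110 CPM in vehicle and 159, 143, 153 and 156 CPM in TP-472. The vehicle libraries other than replicate 3 lay below all TP-472 libraries, and replicate 3 lay above them all. Its log2 fold change was 0.27 (SE 0.16, adjusted p = 0.211 by edgeR) with all 8 libraries and 0.45 (SE 0.06, adjusted p = 1.64e-04) without vehicle replicate 3, which is 1.37-fold and under the fold limit. NECTIN2 (CD112, ENSG00000130202.10, plus strand, chr19:44846175-44889228) measured 48.9, 51.4, 118 and 50.2 CPM in vehicle and 42.6, 42.8, 38.5 and 38 CPM in TP-472. All TP-472 libraries lay below all vehicle libraries. Its log2 fold change was -0.73 (SE 0.28, adjusted p = 0.0708) with all 8 libraries and -0.31 (SE 0.07, adjusted p = 0.00301) without vehicle replicate 3, which is 1.24-fold lower. The 2 genes share none of their 31-base words. CEACAM19, which overlaps the end of PVR on the same strand, averaged 0.912 CPM in vehicle and 1.09 CPM in TP-472.

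Of 4 other nectins and nectin-like ligands, 3 were tested. CADM1, a ligand of the receptor CRTAM on NK and T cells, measured 0.521 ± 0.298 CPM in vehicle and 1.73 ± 0.161 CPM in TP-472 (log2 fold change 1.72) and passed the filter only through the TP-472 libraries, so that its call had to be higher. NECTIN1 and NECTIN3 had log2 fold changes of -0.05 and 0.54, neither past the test with all 8 libraries. Without vehicle replicate 3, NECTIN1 turned sign to 0.46 (adjusted p = 0.0405) and NECTIN3 had 0.29 (adjusted p = 0.0155), both under the fold limit.

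**Figure D3:**
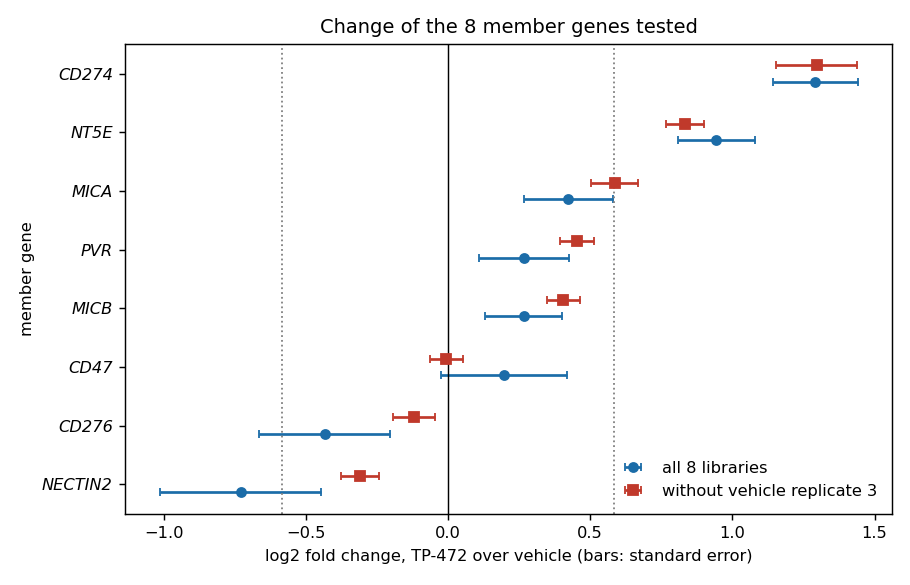
Log2 fold change of TP-472 over vehicle (x axis) with its standard error for the 8 members tested, from the edgeR fit of all 8 libraries (circles) and without vehicle replicate 3 (squares); dotted lines mark the fold limit of 1.5. CD274 (1.29 and 1.30) and NT5E (0.94 and 0.83) lie past the limit in both fits, MICA reaches it in the fit without vehicle replicate 3 (0.59), and NECTIN2 (-0.73 and -0.31) and CD276 (-0.43 and -0.12) move toward 0.

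The NKG2D ligands MICA and MICB lie side by side in the major histocompatibility complex, 79566 bases apart. MICA (ENSG00000204520.14, plus strand, chr6:31399784-31415315) measured 31.4, 31.4, 47.4 and 33.3 CPM in vehicle and 47.4, 51.7, 51.2 and 42.0 CPM in TP-472. Replicate 3 was the only vehicle library within the range of the TP-472 libraries. The log2 fold change was 0.42 (SE 0.16, adjusted p = 0.0613 by edgeR) with all 8 libraries and 0.59 (SE 0.08, adjusted p = 2.66e-04) without vehicle replicate 3. The latter is just past the fold limit of 1.5 (0.585 on the log2 scale), and with RLE, upper quartile or total-count scaling it was 0.57 or 0.58 and not called. MICB (ENSG00000204516.10, plus strand, chr6:31494881-31511124) measured 39.4, 39.7, 55.8 and 39.8 CPM in vehicle and 52.5, 52.7, 55.0 and 49.8 CPM in TP-472. Replicate 3 lay above all TP-472 libraries and the other vehicle libraries lay below them. The log2 fold change was 0.27 (SE 0.13, adjusted p = 0.146) with all 8 libraries and 0.41 (SE 0.06, adjusted p = 2.83e-04) without vehicle replicate 3, which is 1.32-fold. MICA shares 8.77% of its 31-base words with MICB, and both are highly polymorphic in people, while the reads were assigned to reference transcripts.

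Of 6 other NKG2D ligands, 4 were tested and all 4 were called, 2 higher and 2 lower, also without vehicle replicate 3 (backgrounds 26.9% and 25.5% in either direction). ULBP3 rose from 24.7 ± 0.578 CPM to 42.8 ± 1.66 CPM (log2 fold change 0.79, SE 0.09, adjusted p = 4.38e-04 by edgeR) and ULBP2 from 5.82 ± 0.737 CPM to 11.2 ± 0.858 CPM (log2 fold change 0.94, adjusted p = 0.00140). ULBP1 fell from 11.1 ± 1.84 CPM to 5.67 ± 0.424 CPM (log2 fold change -0.97, adjusted p = 0.00190) and RAET1G from 3.17 ± 0.751 CPM to 1.70 ± 0.288 CPM (log2 fold change -0.90, adjusted p = 0.0135). The call of RAET1G was lost with voom quality weights, where its log2 fold change of -0.57 was under the fold limit. Ligands of 1 receptor thus differed in direction in the same libraries. Of 5 proteases and partners that shed these ligands from the surface, 0 were called higher and 1 lower in both fits (the same backgrounds): MMP14, which fell from 135 ± 35 CPM to 55.1 ± 5.10 CPM (log2 fold change -1.29, adjusted p = 0.00100). ADAM10 had a log2 fold change of -0.36 (adjusted p = 0.157 by edgeR), which was -0.54 (adjusted p = 7.44e-05) but under the fold limit without vehicle replicate 3. ADAM17 had 0.28 (adjusted p = 0.242).

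Of 10 further NK-cell ligands, 8 were tested, with 2 called higher and 2 lower (background 26.9% in either direction). Without vehicle replicate 3 the counts were 3 and 1 (background 25.5%), with ICAM2 gained and BAG6 lost. NCR3LG1 (B7-H6), the ligand of the activating receptor NKp30, rose from 14.9 ± 2.84 CPM to 26.8 ± 4.20 CPM (log2 fold change 0.84, adjusted p = 0.00578 by edgeR). ICAM1, the ligand of the integrin LFA-1 in the contact between NK cell and target, rose from 3.77 ± 1.03 CPM to 6.27 ± 0.556 CPM (log2 fold change 0.73, adjusted p = 0.0216). This call was lost in 5 of 21 alternatives, among them those without vehicle replicate 1 or without TP-472 replicate 2, 3 or 4 (adjusted p up to 0.0598 by edgeR). CLEC2D, the ligand of the inhibitory receptor CD161, fell from 3.63 ± 0.656 CPM to 1.97 ± 0.114 CPM (log2 fold change -0.88, adjusted p = 0.00597). BAG6 had a log2 fold change of -0.65 (adjusted p = 0.0433), which was -0.37 and under the fold limit without vehicle replicate 3. HLA-E, the ligand of NKG2A, was at 102 ± 9.86 CPM and 95.7 ± 6.35 CPM and did not pass the test (log2 fold change -0.10, adjusted p = 0.494).

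**Figure D4:**
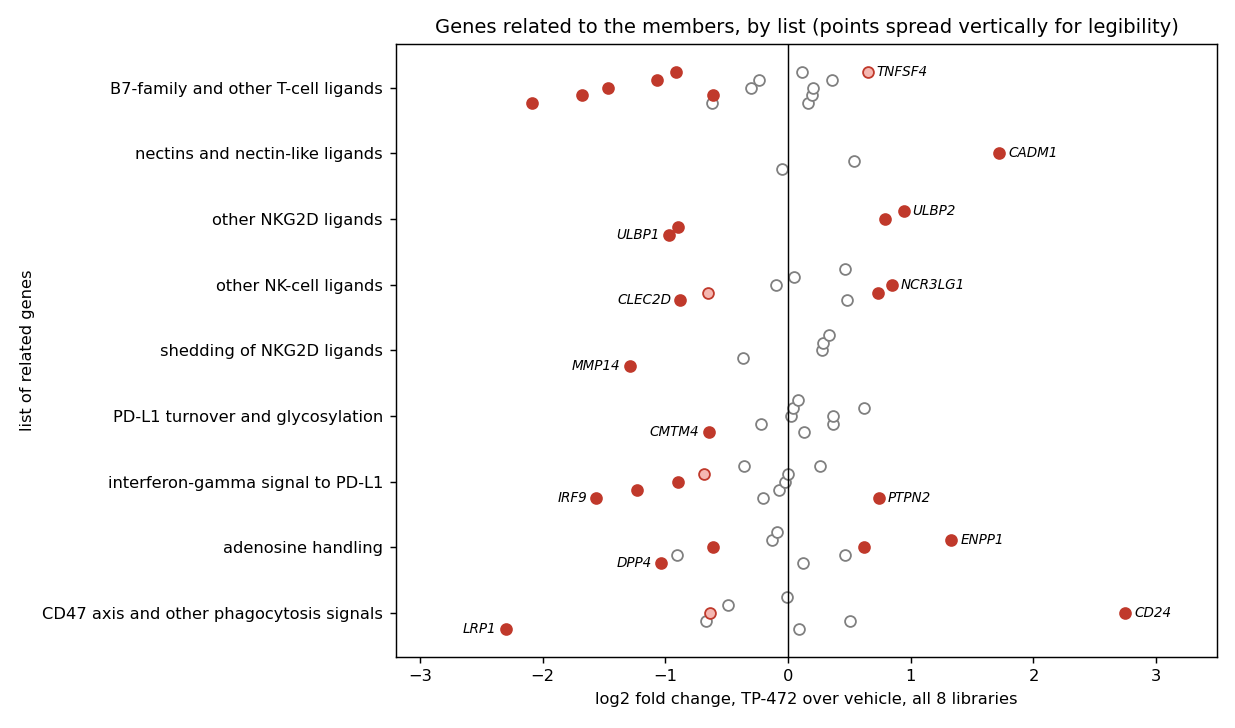
Log2 fold change of TP-472 over vehicle with all 8 libraries (x axis) for the tested genes of 9 related lists (rows). Red points were called with all 8 libraries and without vehicle replicate 3, and pale red points with all 8 libraries only. Open points were not called with all 8 libraries, among them ICAM2, which was called only without vehicle replicate 3. Called genes lie on both sides of 0 in 6 of the 9 rows, from LRP1 at -2.30 to CD24 at 2.75, and the row of B7-family and other T-cell ligands has 6 called genes to the left and 1 to the right.

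Over all 101 genes of the related lists, 74 were tested, of which 10 were called higher and 20 lower, or 40.5%, against 26.9% of all genes tested called in either direction. Without vehicle replicate 3 the counts were 10 and 17, or 36.5%, against 25.5%. Their median log2 fold change was -0.02. These counts include CADM1, CD24 and ENPP1, which passed the filter through the TP-472 libraries, and TNFRSF14, which passed it through the vehicle libraries.

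Levels of the members were compared per kb of annotated exon, with vehicle replicate 3 left out. PVR was the most abundant in vehicle, at 31.7 ± 0.554 CPM per kb (SD, n = 3), followed by NT5E (23.2 ± 1.78), CD47 (15.2 ± 0.222), MICB (14.2 ± 0.0673), MICA (13.4 ± 0.452), NECTIN2 (13.4 ± 0.328) and CD276 (8.96 ± 0.228). CD274 followed far below at 0.514 ± 0.0279, then PDCD1LG2 at 0.270 ± 0.0853 and LGALS9 at 0.110 ± 0.0379. MICA and NECTIN2 could not be ranked against each other, since their ranges overlapped. In TP-472 (n = 4), PVR (43.4 ± 1.94 CPM per kb) and NT5E (41.4 ± 0.711) overlapped at the top. MICA (20.1 ± 1.88) and MICB (18.8 ± 0.767), whose ranges overlapped, were now above CD47 (15.1 ± 0.706). CD274 stayed in its place, at 1.26 ± 0.151 CPM per kb. With the length of the longest transcript in place of all exons, 6 of the 10 ranks in vehicle were kept.

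**Figure D5:**
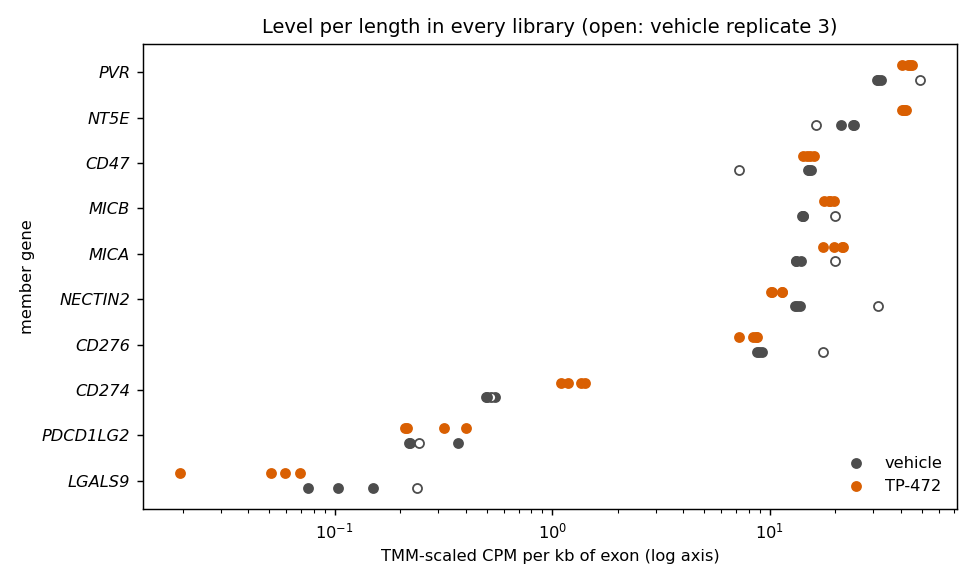
Level per length of the 10 members in every library (x axis, TMM-scaled CPM per kb of exon on a log scale), ordered by the mean of vehicle replicates 1, 2 and 4; the open circle is vehicle replicate 3. PVR and NT5E are at the top, with NT5E moving from 23.2 to 41.4, and CD274, at 0.514 in vehicle and 1.26 in TP-472, lies far below the 7 more abundant members.

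Apart from CD8A, defining markers of T, B and NK cells were at or near 0, whereas some markers shared with other cells were detected. Of 14 immune-cell genes, 5 were at 0 in all 8 libraries (CD3D, CD3E, NKG7, NCR1 and MS4A1), and PTPRC (CD45) had 1 count in all. The summed level of the list was 9.42 to 12.2 CPM in vehicle and 11.2 to 14.4 CPM in TP-472, and CD68, which other cells also express, made up 63.3% to 84.2% of it. CD68 was at 7.53 ± 0.573 CPM in vehicle and 10.4 ± 1.48 CPM in TP-472. CD14, which was under the filter, was at 0.584 ± 0.143 CPM and 0.889 ± 0.123 CPM. The groups did not overlap in either gene. The background of 45.4% covers the genes tested and so applies to CD68 only. ITGAX went the other way, at 1.44 ± 0.943 CPM and 0.571 ± 0.214 CPM with overlap, and CD8A was at 0.748 ± 0.256 CPM and 0.586 ± 0.127 CPM. Of 10 receptors of checkpoint and NK ligands, PDCD1 and CTLA4 were at 0 in all libraries, whereas CD226, which encodes DNAM-1, was at 7.66 ± 1.33 CPM in vehicle and 8.85 ± 2.02 CPM in TP-472 (log2 fold change 0.21, adjusted p = 0.416 by edgeR). LAG3, the other receptor tested, was at 1.80 ± 1.29 CPM in vehicle, with 3.73 CPM in vehicle replicate 3, and 1.06 ± 0.284 CPM in TP-472. Its log2 fold change was -0.75 (adjusted p = 0.200 by edgeR), and -0.12 without that library. Smooth muscle markers, against which the labelled origin of the line was checked, were present in part. CALD1 led the list of 8 at 200 ± 15.3 CPM in vehicle and ACTA2 stood at 160 ± 16.7 CPM, while DES was at 3.25 ± 0.203 CPM and MYH11, a marker of mature smooth muscle, had 0, 0, 0 and 1 counts in vehicle and 10, 8, 7 and 10 counts in TP-472. Of the 7 tested, 3 were called lower and 0 higher (background 14.9% lower), and 4 were called lower without vehicle replicate 3 (background 13.4%). TAGLN fell from 32.3 ± 3.40 CPM to 20.3 ± 1.94 CPM (log2 fold change -0.67, adjusted p = 0.00397 by edgeR). ACTA2 was at 109 ± 3.52 CPM in TP-472 (log2 fold change -0.55, adjusted p = 0.00426), under the fold limit with all 8 libraries and past it without vehicle replicate 3 (-0.59). The others called, DES (log2 fold change -2.36) and LMOD1 (-1.84), passed the filter only through the vehicle libraries. The list's summed level was 439 to 524 CPM in vehicle and 371 to 380 CPM in TP-472. Of 8 epithelial and endothelial markers, 3 were tested, with 1 called higher and 1 lower, also without vehicle replicate 3 (backgrounds 26.9% and 25.5% in either direction). The 8 markers summed to 17.6 to 23.2 CPM in vehicle and 21.0 to 27.3 CPM in TP-472. KRT18 rose from 7.39 ± 0.871 CPM to 15.6 ± 1.47 CPM (log2 fold change 1.08, adjusted p = 7.26e-04 by edgeR) and was the most abundant of them in TP-472. KRT19, the highest of them by its mean in vehicle, fell from 8.88 ± 1.78 CPM to 4.93 ± 1.15 CPM (log2 fold change -0.85, adjusted p = 0.0151). EPCAM, under the filter, was at 0.731 ± 0.0983 CPM in vehicle and 0.245 ± 0.0477 CPM in TP-472. Its groups did not overlap, and as for CD14 no background was computed for genes under the filter. In RNA from whole pellets, fewer cells of a state and less RNA per cell cannot be told apart, and the part of these marker changes in the member changes was not tested.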

How the data were processed

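The authors isolated RNA with Trizol, prepared strand-specific TruSeq libraries and sequenced them on a NovaSeq. Reads were mapped with STAR and quantified with Salmon 1.4.0 (GRCh38), and tximport summed transcripts to genes with GENCODE 34. The values deposited by the authors are expected counts, that is, estimated counts per gene with no normalization. Whether Salmon used the strand is not given in the sources used here.

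The estimates were rounded to whole counts. Genes with over 1 CPM in at least 4 of 8 libraries were fitted with edgeR 4.0.16 (glmQLFit and glmQLFTest, TMM scaling) in R 4.3.3, and p-values were adjusted over all 14073 genes. CPM values were also compared by an exact two-sided permutation test over 70 assignments (SciPy 1.17.1). Coordinates, exons and GC content came from GENCODE 29 on GRCh38, matched by gene identifier, and promoters from RefSeq. Alternatives were DESeq2 1.42.0, limma-voom (limma 3.58.1), other scalings and filters, a GC correction, replicate blocks and libraries left out. The calculations were tested on simulated data, and no library was a copy of another (lowest mean chi-square between replicates 12.8). The members and lists were chosen with earlier results of these data known. Named were all members, at most the 2 genes called in each direction with the lowest adjusted p per list, further genes where a whole list was described, neighbours, genes most like CD274, and leading markers. A few genes that the counts include are not reported here by name. Genes named as under the filter or not past the test were chosen after their values were seen. Depths of 32574716 to 38545695 counts leave counting error small except for CD274, PDCD1LG2 and LGALS9.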

Additional observations from a re-analysis of the deposited data

Results flagged for a closer look

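In groups of 4 libraries, a library was picked out where its gap to the nearest other was over Dixon's 95% limit for a share of the group's range, which chance does for about 1 in 20 groups; 68 groups of libraries were examined, 2 for each of the members and the named related genes. Of the 10 values picked out, 9 belonged to vehicle replicate 3. In that library, CD276 stood at 97.9 CPM, PVR at 174 CPM, NECTIN2 at 118 CPM, MICA at 47.4 CPM and MICB at 55.8 CPM, each the highest of the vehicle group, whereas CD47 was the lowest at 59.2 CPM. Among the related genes, MMP14 was the highest there at 187 CPM, and PTPN2 at 24.8 CPM and DPP4 at 78.5 CPM were the lowest. The remaining value was RAET1G in TP-472 replicate 4, the lowest of its group at 1.27 CPM. CD274 and NT5E were not picked out in either group.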

How the results depend on the processing

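CD274 (log2 fold change 1.12 to 1.35) and NT5E (0.78 to 1.01) were called in all 21 alternatives run on them. MICA and NECTIN2 were each called in 2 of 21, and CD276, CD47, PVR and MICB in none. Of all genes, 3789 were called in the fit reported and 2144 at an adjusted p under 0.01; leaving out 1 library gave 2690 (without TP-472 replicate 3) to 4223 (without vehicle replicate 2). Member genes called were 4 with DESeq2 and 4 with no filter, in place of 2, with NECTIN2 and LGALS9 added, and in these fits the median over all genes moved to 0.13 and 0.12. The CD47 log2 fold change turned from 0.20 to -0.029 with voom quality weights, and leaving out 1 library gave -0.0064 (without vehicle replicate 3) to 0.28. In fits chosen after seeing the data that also left out this library, it was -0.0045 with the GC correction, -0.0090 with RLE scaling, -0.024 with upper quartile scaling, -0.0092 with library totals and -0.037 with no filter. Of the ranks by member levels per length, 6 were the same with longest transcripts. Among related genes, ADORA1 and ADA each lost their call in 4 of 21 alternatives by falling under the fold limit, ADORA1 without vehicle replicate 1 (0.56) or TP-472 replicate 2 (0.54) and ADA without vehicle replicate 2 (-0.57) or TP-472 replicate 4 (-0.58), both log2. TNFSF4 lost it in 12 of 20 (adjusted p up to 0.109), among them with any 1 library other than vehicle replicate 2 left out. BAG6 lost it in 12 of 21 (up to 0.107) and QPCTL in 10 of 21 (up to 0.0966), both with any 1 TP-472 library or vehicle replicate 3 left out, BAG6 also without vehicle replicate 1 and QPCTL also without vehicle replicate 4. RAET1G lost it in 1 of 21, with voom quality weights (-0.57), and 3 of the 4 other NKG2D ligands tested were called at an adjusted p under 0.01. Replicate numbers do not pair the samples (same-number correlations -0.177 to 0.116); the replicate block gave 3055 genes called, and 2 members. Precision was limited by the spread between 4 libraries, and for CD274, PDCD1LG2 and LGALS9 also by counts.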

Other observations

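Of 16 distinct tested genes next to a member on either side, 3 were called with all 8 libraries (18.8%) and 4 without vehicle replicate 3 (25.0%), against 26.9% and 25.5% of all genes tested. Of the 3, NOS2 and LINC02535 passed the filter only through the TP-472 libraries, so the count says nothing of the neighbours as a whole. The remaining gene was BCAM, 24754 bases before NECTIN2 on the same strand. It averaged 21.8 CPM in vehicle and 5.43 CPM in TP-472 (log2 fold change -2.01, adjusted p = 0.0201 by edgeR). Without vehicle replicate 3 its log2 fold change was -1.08 (adjusted p = 4.94e-04 by edgeR). The nearest tested gene after NECTIN2, 1341 bases away on the same strand, went the other way. Its log2 fold change was 0.51 (adjusted p = 0.0853 by edgeR), and 0.76 (adjusted p = 1.52e-04) without vehicle replicate 3. That was the call gained in the latter fit. NOS2, the nearest tested gene after LGALS9 and 107206 bases from it, averaged 0.640 CPM in vehicle and 1.39 CPM in TP-472, while KSR1 on the other side had a log2 fold change of -0.70 (adjusted p = 0.0569 by edgeR). DDX39B, next to MICB, was at 300 CPM in vehicle and 276 CPM in TP-472 on average (log2 fold change -0.12, adjusted p = 0.442). HCP5, which overlaps MICA on the same strand, was under the filter, at 0.0569 CPM in vehicle and 0.572 CPM in TP-472 on average.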
